A study of Mus musculus with 8 samples.

Results

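The 50 genes described here are protein-coding genes whose RNA stood at a higher level in mouse hemogenic endothelium without Runx1. They were chosen by their level in a deposited table of 622 genes, of which 235 were higher in the knockout (ko) cells. A gene was taken if the table typed it as protein-coding, if it did not lie on chromosome 14, if its mean over 4 ko libraries was at least 1 RPKM (reads per gene, scaled to the gene's length and the library's depth), and if that mean was at least 2.5 times the mean of 4 wild-type (wt) libraries. Of the 223 coding genes higher in ko cells, 158 lay outside chromosome 14, 103 of these reached the level and 62 of these the ratio, and 12 of these were set aside by name (Itgb2, Slc1a3, Ntn4, Spnb1, Fst, Tfrc, Fermt3, Alas2, Glul, Bmper, Foxa2 and Tubb3). The difference between ko and wt cells therefore selected the genes and is given below as a description, without a test.

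Hemogenic endothelium is the endothelium from which blood cells arise, and RUNX1 is the transcription factor required for that transition. RUNX1 binds DNA with its partner CBFB at a short core motif and can raise or lower the transcription of a target gene. Cells that lack it form hemogenic endothelium but do not go on to blood. The genes below are coding genes of mixed function, such as transporters, receptors, muscle proteins and enzymes, several of them better known from heart, nerve or epithelium than from blood vessels.

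The cells were derived from embryonic stem (ES) cells of strain 129. Embryoid bodies of d3.25 gave FLK1+ cells, which spent 2 days in a liquid culture with VEGF and IL6 before cKIT+ TIE2+ CD41- cells were sorted, per the labels' protocols. The wt lines were iDam and BryGFP. The ko lines were iDamko, named in the labels as iDam without Runx1, and Ainv18ko, a Runx1 knockout of the line Ainv18. Each line gave 2 libraries, called biological duplicates in the design text, so p-values between lines measure the spread between these libraries. Unmodified Ainv18 cells are not among the libraries, so Ainv18ko has no wt line of its own, and whether a line is a single clone is not stated. All libraries came from sorted cells of the same phenotype, and the labels give no treatment that differs between groups. The sort markers Kit, Tek and Itga2b and Runx1 itself were not analysed here, so neither the sort nor the genotype was checked at the RNA.

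Low values implied depths of 42270000 to 58920000 reads per library. Marker genes of other cell types were in the table, which holds only genes that differed from both wt lines, so every marker in it moved with the genotype. It held 4 of 21 erythroid, 6 of 17 cardiac, 2 of 10 neural, 3 of 9 smooth muscle, 2 of 20 endothelial, 3 of 16 myeloid and megakaryocyte, 1 of 8 endoderm and 1 of 8 pluripotency markers listed. The summed level of 4 erythroid markers was 50.7 to 71.4 RPKM in wt and 139 to 170 RPKM in ko libraries, that of 2 neural markers 3.27 to 23.5 and 54.4 to 131 RPKM, and that of 6 cardiac markers 25.3 to 54.0 and 80.6 to 101 RPKM. The cardiac markers Gata4, Gata5, Hand2 and Tnnt2 were higher in ko cells and Hand1 and Isl1 lower, and Tnnt2 is among the 50 genes. Gata4 and the neural marker Nefl lie on chromosome 14, which the selection left out, and weigh much in these sums. Gata4 averaged 10.7 RPKM in wt and 43.8 RPKM in ko libraries, and Nefl 2.94 and 34.1 RPKM. Tubb3, the other neural marker, averaged 9.25 and 54.2 RPKM. The summed level of 3 smooth muscle markers was 123 to 648 RPKM in wt and 18.7 to 74.3 RPKM in ko libraries, and that of the endothelial markers Cldn5 and Clec14a 9.90 to 39.7 and 4.87 to 6.24 RPKM. The myeloid and megakaryocyte markers summed to 3.06 to 8.94 RPKM in wt and 1.32 to 3.87 RPKM in ko libraries, but did not move together. Itgb2 was higher in ko cells, with means of 0.535 RPKM in wt and 2.35 RPKM in ko libraries. Itgb3 (4.74 and 0.255 RPKM) and Lyz2 (0.638 and 0.00429 RPKM) were lower. Foxa2 of endoderm measured 0.0948 to 0.402 and 1.23 to 2.94 RPKM, and Dppa4 of pluripotent cells 5.84 to 11.7 and 1.32 to 3.21 RPKM. The part of these markers in the results was not tested. In bulk RNA, more cells of a kind and more RNA per cell cannot be told apart.

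The ratio of mean ko to mean wt level ranged from 2.52 to 41.6 over the 50 genes, with a median of 3.67, where all genes of the table higher in ko cells had a median of 2.81. A ratio of at least 5 was reached by 11 genes and a ratio of at least 10 by 6. Mean ko levels ran from 1.01 to 40.03 RPKM with a median of 2.43, so that 28 genes lay under 3 RPKM and 10 reached 10 RPKM. In all 50 genes the lowest of the 4 ko libraries stood above the highest of the 4 wt libraries, as it did in 235 of the 622 genes of the table (37.8%), a property that follows from how the genes were selected. The lowest ko value exceeded the highest wt value by 1.18-fold to 8.67-fold, with a median of 2.03-fold. The authors' deposited table gave the 50 genes a median fold of 4.61 against iDam and 3.45 against BryGFP, beside 3.42 and 2.67 for all its genes higher in ko cells. These folds come from the same libraries, so the higher medians of the 50 genes, like their median ratio of 3.67, follow from the selection by ratio.

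**Figure D1:**
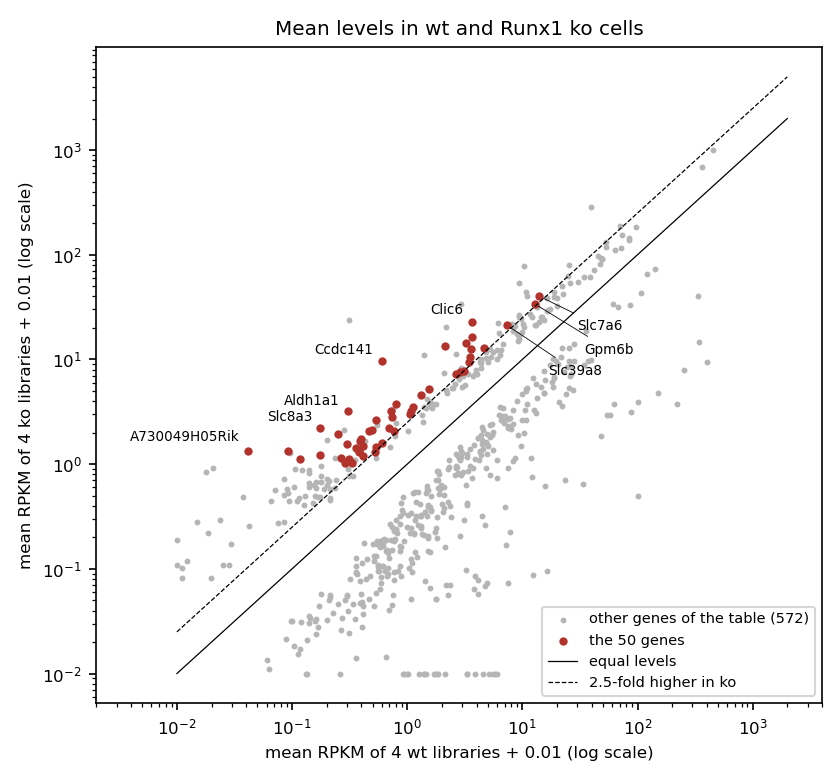
Mean RPKM of the 4 wt libraries (horizontal) against that of the 4 ko libraries (vertical), both with 0.01 added and on log scales, for the 622 genes of the table. The 50 genes (red) lie above the dashed line of 2.5-fold, with mean ko levels from 1.01 to 40.03 RPKM.

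At the edge of the ratio, Mob3b and Sall1 at 2.52 were the last genes taken, and Svip at 2.48 and Gldc at 2.41 were the first left out. At the edge of the level, Car5b with a mean ko level of 1.01 RPKM and Oprl1 with 1.02 RPKM were taken. Pip5k1b with 0.957 RPKM was left out at a ratio of 5.68, as was Pdyn, the gene of prodynorphin, with 0.913 RPKM at a ratio of 86.6.

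Channels and transporters made up 8 of the 50 genes, with ratios from 2.85 to 13.3, and included 4 of the 5 most abundant. Slc7a6, which exchanges cationic for neutral amino acids at the plasma membrane, was the most abundant, with 11.1 and 11.6 RPKM in the iDam libraries, 16.1 and 17.4 in BryGFP, 33.7 and 49.7 in iDamko, and 30.3 and 46.4 in Ainv18ko. Its level differed more between the libraries of a ko line than between the ko lines. Clic6, of the chloride intracellular channel family, stood at 2.74 and 3.47 RPKM in iDam, 4.64 and 3.64 in BryGFP, 25.2 and 25.5 in iDamko, and 15.0 and 25.1 in Ainv18ko, a ratio of 6.26. All ko libraries but 1 of Ainv18ko held close to the same level of Clic6.

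Slc39a8, which imports zinc and manganese, measured 6.402 and 6.78 RPKM in iDam, 8.08 and 7.998 in BryGFP, 19.6 and 23.5 in iDamko, and 16.7 and 25.4 in Ainv18ko. Aqp8, a water channel, measured 3.52 and 3.38 RPKM in iDam, 4.52 and 3.16 in BryGFP, 20.2 and 13.9 in iDamko, and 18.9 and 12.9 in Ainv18ko. Within each ko line the library with the higher Slc39a8 was the one with the lower Aqp8. Among the wt libraries Aqp8 was highest in 1 BryGFP library, and Slc39a8 was higher in BryGFP than in iDam. Slc8a3, a sodium-calcium exchanger of excitable cells, was at 0.248 and 0.0964 RPKM in iDam, 0.165 and 0.156 in BryGFP, 2.29 and 2.41 in iDamko, and 2.57 and 1.60 in Ainv18ko, the largest ratio of the class at 13.3. Atp2b4, a plasma membrane pump that like Slc8a3 moves calcium out of the cell, averaged 1.52 RPKM in wt and 5.25 RPKM in ko libraries. The acid-sensing channel gene Accn2 (Asic1) and the neutral amino acid transporter gene Slc6a15 had mean ko levels of 1.67 and 1.71 RPKM.

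Receptors and secreted or surface ligands made up 10 genes, with ratios from 2.66 to 7.34. Il1r2, a decoy receptor that binds interleukin-1 without signalling, measured 0.117 and 0.127 RPKM in iDam, 0.186 and 0.236 in BryGFP, 0.888 and 1.91 in iDamko, and 1.09 and 1.00 in Ainv18ko, a ratio of 7.34. Adra2b, an adrenergic receptor that couples to inhibitory G proteins, measured 0.313 and 0.369 RPKM in iDam, 0.226 and 0.257 in BryGFP, 1.79 and 1.38 in iDamko, and 1.53 and 1.49 in Ainv18ko. The 4 ko libraries lay close together for Adra2b and were spread for Il1r2, where 1 iDamko library stood apart. Gpm6b, a membrane protein of the proteolipid family, was the most abundant of the class with 16.9 and 15.96 RPKM in iDam, 9.91 and 8.31 in BryGFP, 29.8 and 37.3 in iDamko, and 33.6 and 35.2 in Ainv18ko. Its ko levels overlapped between the lines, while both iDam libraries stood above both BryGFP libraries.

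The other receptors were Oprl1, the nociceptin receptor, with a mean ko level of 1.02 RPKM, Ptgfr, the receptor of prostaglandin F2 alpha, with 7.28 RPKM, and the ephrin receptor Epha7 with 2.78 RPKM. An ephrin ligand, Efna3, was also among the 50 genes, with 2.22 RPKM in ko and 0.681 RPKM in wt libraries. The secreted proteins were Pappa, a protease that frees insulin-like growth factors from a binding protein, Stc2, a secreted glycoprotein that inhibits PAPPA, and the peptide hormone urocortin (Ucn). Pappa averaged 1.404 RPKM in ko and 0.352 RPKM in wt libraries, and Stc2 3.53 and 1.12 RPKM, so a protease and its inhibitor were both higher in ko cells. Ucn, with 10.5 RPKM in ko and 3.49 RPKM in wt libraries, was the second most abundant of the class.

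Genes of the cytoskeleton, motors and small GTPase signalling made up 10 genes, with ratios from 2.72 to 16.4, and several are known from striated muscle. Ccdc141, a coiled-coil protein described in migrating neurons, measured 0.446 and 0.389 RPKM in iDam, 0.591 and 0.945 in BryGFP, 10.7 and 8.20 in iDamko, and 9.02 and 11.03 in Ainv18ko. The ko libraries differed little for Ccdc141, and its lowest ko library stood 8.67-fold above its highest wt library, the widest gap of the 50 genes. Fhod3, a formin that organises actin in the sarcomeres of heart muscle, averaged 3.26 RPKM in wt and 14.3 RPKM in ko libraries. Others of the class were Arhgdig, an inhibitor that holds small GTPases in their inactive form, Cdc42ep3, an effector of CDC42, the GTPase-binding protein gene Rhpn2, Fam65b (Ripor2), an inhibitor of a small GTPase, and the kinesin gene Kif21a, with mean ko levels from 1.33 to 9.37 RPKM.

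Lad1, which encodes ladinin 1, a protein first described in the anchoring filaments of skin, lies on chromosome 1 between the genes of 2 troponin subunits, Tnni1 and Tnnt2. Tnni1 encodes slow skeletal troponin I, the inhibitory subunit also used by the embryonic heart, and Tnnt2 cardiac troponin T. All 3 are on the plus strand, next to each other, from base 135779434 to base 135852260 of the GRCm38 build, 72.8 kb in all. The gaps between them are 7.61 kb and 3.01 kb, and they were the only members within 1 Mb of each other. The neighbouring coding genes Phlda3 and Pkp1 were not analysed here.

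Lad1 measured 0.264 and 0.332 RPKM in iDam, 0.676 and 0.837 in BryGFP, 2.20 and 2.02 in iDamko, and 2.84 and 3.45 in Ainv18ko. Tnni1, named like Tnnt2 after its values were seen, measured 3.60 and 2.99 RPKM in iDam, 3.95 and 3.66 in BryGFP, 20.9 and 6.13 in iDamko, and 15.3 and 8.26 in Ainv18ko. Tnnt2 measured 3.80 and 4.91 RPKM in iDam, 5.48 and 4.50 in BryGFP, 13.4 and 9.86 in iDamko, and 13.3 and 14.9 in Ainv18ko. The 3 genes did not vary together among the ko libraries: Tnni1 was highest in the libraries numbered 1, Lad1 in the Ainv18ko libraries, and Tnnt2 was lower in 1 iDamko library than in the other 3.

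**Figure D2:**
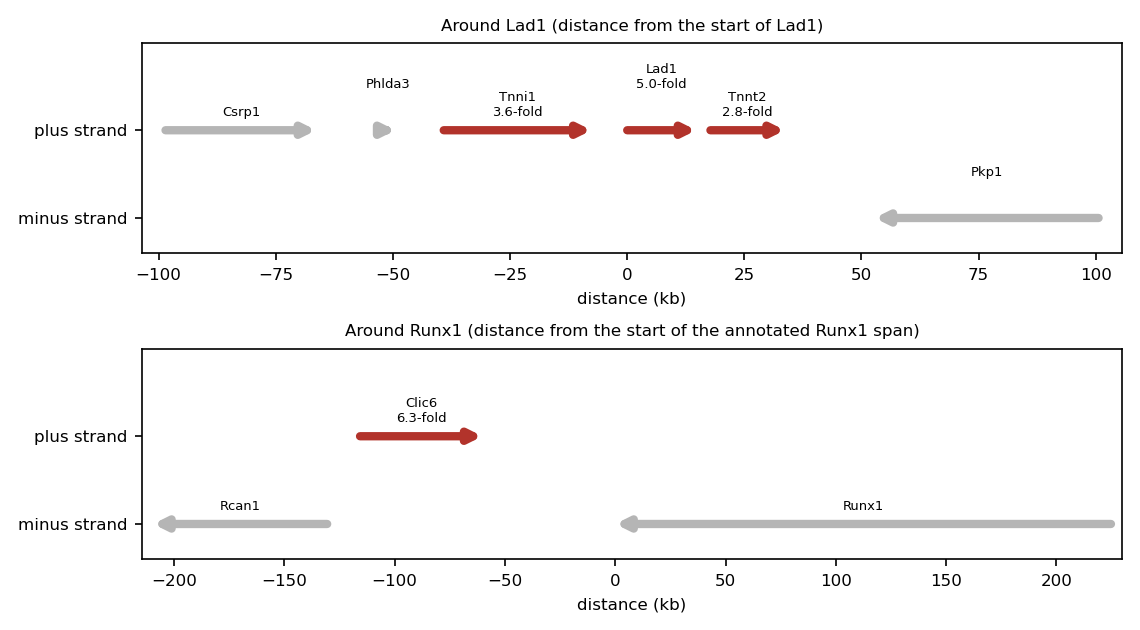
Coding genes on each strand (arrows point along transcription) around Lad1 and around Runx1, by distance in kb, with the ratio of mean ko to mean wt RPKM above members (red); grey genes were not analysed here. Tnni1, Lad1 and Tnnt2 stand side by side within 72.8 kb, and Clic6 ends 60.2 kb from Runx1.

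Clic6 is the member closest to the mutated gene, ending 60.2 kb from Runx1 on chromosome 16. No other coding gene of the GENCODE M21 annotation lies between them. The only other gene of the table within 1 Mb of Runx1, 2410124H12Rik, was not a member because of its low level, with 0 and 0 RPKM in iDam, 0.192 and 0.0547 in BryGFP, 0.605 and 0.675 in iDamko, and 0.320 and 0.637 in Ainv18ko. Its annotated span overlaps that of Clic6. It too was higher in every ko library than in any wt library, as were all 235 genes of the table higher in ko cells. The next gene of the table on that chromosome was 44.3 Mb away, and 6 of the 16 table genes of chromosome 16 were higher in ko cells.

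Promoter sequences, from 250 bases before to 50 bases after the start of the gene, are shown for the 3 neighbours on chromosome 1 and for 2 members with a match to the RUNX core motif (RefSeq, GRCm38.p6), 5' to 3' on the strand of the gene. Capitals mark the core motif TGTGGT or its other strand ACCACA.
Tnni1, chr1:135799171-135799470, plus strand: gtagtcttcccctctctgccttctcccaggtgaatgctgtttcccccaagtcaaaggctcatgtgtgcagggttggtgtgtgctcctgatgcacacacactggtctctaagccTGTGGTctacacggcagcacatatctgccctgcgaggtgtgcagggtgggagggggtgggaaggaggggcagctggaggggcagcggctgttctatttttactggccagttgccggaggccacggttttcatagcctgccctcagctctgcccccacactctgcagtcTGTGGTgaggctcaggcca
Lad1, chr1:135818348-135818647, plus strand: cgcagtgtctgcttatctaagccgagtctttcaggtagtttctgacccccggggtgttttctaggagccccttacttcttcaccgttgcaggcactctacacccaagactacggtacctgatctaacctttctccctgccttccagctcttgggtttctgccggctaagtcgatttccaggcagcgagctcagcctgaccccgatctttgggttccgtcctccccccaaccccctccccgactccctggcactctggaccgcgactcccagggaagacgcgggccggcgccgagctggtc
Tnnt2, chr1:135836084-135836383, plus strand: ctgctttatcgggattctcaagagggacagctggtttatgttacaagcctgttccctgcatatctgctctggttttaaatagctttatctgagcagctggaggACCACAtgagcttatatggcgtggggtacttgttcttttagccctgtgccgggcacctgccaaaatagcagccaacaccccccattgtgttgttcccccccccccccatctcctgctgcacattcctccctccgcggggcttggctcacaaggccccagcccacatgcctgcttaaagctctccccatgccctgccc
A730049H05Rik, chr6:92816193-92816492, plus strand: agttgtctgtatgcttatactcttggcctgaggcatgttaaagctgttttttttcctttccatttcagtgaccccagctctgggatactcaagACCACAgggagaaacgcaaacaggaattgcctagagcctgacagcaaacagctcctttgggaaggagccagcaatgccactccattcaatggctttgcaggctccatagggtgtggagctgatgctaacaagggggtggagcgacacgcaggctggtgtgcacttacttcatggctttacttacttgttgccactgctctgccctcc
Slc39a8, chr3:135825029-135825328, plus strand: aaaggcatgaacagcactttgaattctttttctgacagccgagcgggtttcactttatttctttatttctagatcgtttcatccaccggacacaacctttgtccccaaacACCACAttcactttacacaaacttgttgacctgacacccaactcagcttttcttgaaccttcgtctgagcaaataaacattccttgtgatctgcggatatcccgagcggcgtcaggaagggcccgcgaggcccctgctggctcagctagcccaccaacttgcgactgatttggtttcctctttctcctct
The start used by RefSeq lies 19987 bases inside the gene as GENCODE annotates it for Tnni1, and likewise 47294 bases for Atp2b4, 21856 for Accn2 and 12014 for Il1r2, so these promoters are not those of the GENCODE start. Promoters were found for 37 of the 50 genes, and 5 of them (13.5%) held the core motif on either strand, against 15.1% of 17491 promoters of coding genes. The match began 157 bases before the start in A730049H05Rik, 140 in Slc39a8, 147 in Tnnt2 and 137 in Tnni1, which had another after the start, and the C77370 promoter held its match after the start. The GATA motif AGATAA, or TTATCT on the other strand, stood in 4 of the 37 (10.8%) against 9.96%, in Atp2b4, Ccdc141, Lad1 and Tnnt2. The E-box CAGCTG, which reads alike on both strands, stood in 6 (16.2%) against 15.1%, in Ccdc141, Elavl2, Fam110c, Slc8a3, Tnni1 and Tnnt2. No matches of different motifs shared letters in these promoters, and a match is not evidence of binding. The median GC content was 58.3% in the 37 promoters and 56.3% in all.

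Transcription and RNA-binding proteins made up 5 genes, with ratios from 2.52 to 8.05. Cited4, a coactivator that binds CBP and p300, measured 1.41 and 0.163 RPKM in iDam, 3.54 and 3.44 in BryGFP, 19.8 and 4.77 in iDamko, and 22.5 and 6.40 in Ainv18ko. Zcchc12, a coactivator in bone morphogenetic protein signalling, measured 0.416 and 0.0721 RPKM in iDam, 0.211 and 0.263 in BryGFP, 2.19 and 1.49 in iDamko, and 2.28 and 1.79 in Ainv18ko. Cited4 split the ko libraries by their number rather than by line, and in iDam its libraries also lay far apart. C77370 (Nexmif), an X-linked regulator of neurite extension, measured 4.54 and 4.14 RPKM in iDam, 1.52 and 1.29 in BryGFP, 7.73 and 6.93 in iDamko, and 8.58 and 7.33 in Ainv18ko. Its ko levels overlapped between lines, and its wt levels did not. The zinc finger repressor gene Sall1 and the neuronal RNA-binding protein gene Elavl2 had mean ko levels of 7.79 and 1.49 RPKM.

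Metabolic enzymes made up 4 genes. Aldh1a1, which makes retinoic acid from retinaldehyde, measured 0.0642 and 0.0922 RPKM in iDam, 0.394 and 0.638 in BryGFP, 1.63 and 2.23 in iDamko, and 2.51 and 6.35 in Ainv18ko, a ratio of 10.7. In both genotypes its level was lower in the line with the Dam name, iDam or iDamko, without overlap. Bdh1, of ketone body metabolism, Gls2, a mitochondrial glutaminase, and Car5b, a mitochondrial carbonic anhydrase, had mean ko levels of 3.71, 2.07 and 1.01 RPKM.

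Trafficking and scaffold proteins made up 5 genes. Grtp1, whose TBC domain is that of Rab GTPase-activating proteins, measured 0.0746 and 0.0535 RPKM in iDam, 0.106 and 0.198 in BryGFP, 1.56 and 0.550 in iDamko, and 1.60 and 0.718 in Ainv18ko, a ratio of 10.2. Its ko libraries paired by number across the lines. Sh3tc2, an endosome recycling protein of Schwann cells, the huntingtin partner gene Hap1, Ccdc88c, which binds Dishevelled, and Mob3b, of the MOB kinase regulator family, had mean ko levels from 1.19 to 3.19 RPKM. The ubiquitin pathway gave 4 genes, the ligase genes Rnf165 and March9, the F-box protein gene Fbxo2 and the deubiquitinase gene Usp44, with ratios from 2.67 to 4.40 and mean ko levels from 1.101 to 1.60 RPKM.

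No role was assigned to 4 genes, among them Ydjc and Fam110c. A730049H05Rik had the largest ratio, 41.6, with 0.00421 and 0.0821 RPKM in iDam, 0.0309 and 0.00927 in BryGFP, 0.602 and 1.80 in iDamko, and 0.323 and 2.54 in Ainv18ko. Its wt values rest on few reads, and its ko level was higher in the libraries numbered 2 of each line. D730045B01Rik measured 0.122 and 0 RPKM in iDam, 0.146 and 0.0624 in BryGFP, 0.827 and 1.70 in iDamko, and 1.68 and 1.15 in Ainv18ko. It was the only member listed at 0 in a library, and GENCODE M21 types it as a long intergenic RNA, where it types the other 49 as protein-coding. Exons of 8 members overlap those of another coding gene, A730049H05Rik those of Adamts9 and Grtp1 those of Lamp1 on the other strand, and D730045B01Rik those of Gm42906 on its own strand. The other 5 are Arhgdig with Rgs11, Fhod3 with Gm9955, Gls2 with Spryd4, Rhpn2 with Faap24, and Ydjc with Ccdc116 and Ube2l3. Whether reads were counted by strand is not given in the sources used here, so reads of such neighbours cannot be told apart.

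**Figure D3:**
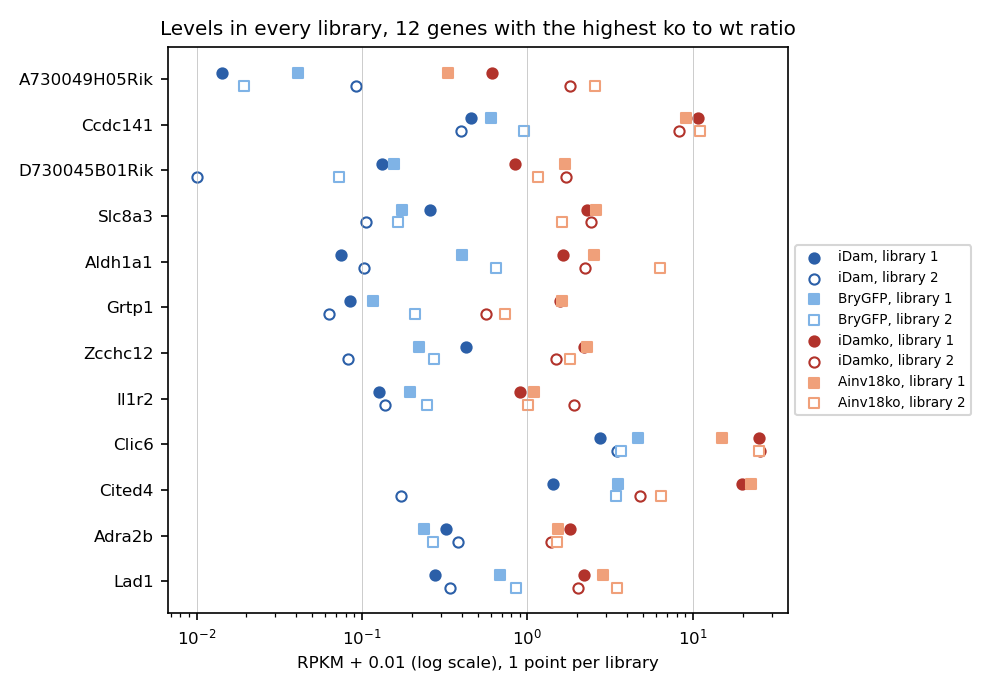
RPKM + 0.01 on a log scale in each of the 8 libraries for the 12 members with the highest ratio of mean ko to mean wt level; blue points are wt and red or orange points ko libraries, filled for number 1 and open for number 2. Every ko point lies to the right of every wt point of its gene, and A730049H05Rik, Grtp1, Zcchc12, Cited4 and Adra2b separate filled from open ko points.

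The 2 ko lines were compared first. The ratio of the iDamko to the Ainv18ko mean had a median of 0.949, and the higher line exceeded the lower by a median of 1.12-fold and at most by 2.29-fold, in Aldh1a1. The lines lay within 1.2-fold of each other in 38 of the 50 genes, beside 291 of the 454 genes of the table that averaged 0.5 RPKM or more over all libraries, and within 1.5-fold in 49 of 50, beside 375 of 454. Many of the 454 genes are low in ko cells, where folds are less certain, and on the log2(RPKM + 1) scale the median absolute difference between the ko lines was 0.11 for the 50 genes and 0.088 for all 454. The filter on the mean let every member through by construction, because each has a ko mean of at least 1 RPKM. The 2.5-fold rule used the joint mean of the ko lines and not the difference between them. The table itself, however, holds only genes that differed from both wt lines, which can favour genes on which the ko libraries agree. The difference between the ko lines was tested with limma on log2(RPKM + 1), adjusted by the Benjamini-Hochberg method over the 454 genes.

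None of the 50 genes passed an adjusted p of 0.05 between the ko lines in the limma test, where 12 of the 454 genes did (2.64%). Without adjustment 2 genes had a p under 0.05. Aldh1a1 was lower in iDamko by -0.80 ± 0.31 (log2 difference, SE, adjusted p = 0.726, limma) and Lad1 by -0.41 ± 0.16 (adjusted p = 0.726, limma). The 95% interval of the log2 difference, taken gene by gene without adjustment, reached a median of 0.48 to either side. The adjusted test asks for more, and the difference of -0.80 in Aldh1a1 was not called, so the lack of calls does not show equal levels. All libraries of iDamko stood above all of Ainv18ko in 4 genes (Atp2b4, Clic6, March9 and Oprl1), beside 8.37% of the 454 genes. All libraries of Ainv18ko stood above those of iDamko in 5 (Aldh1a1, Efna3, Hap1, Lad1 and Pappa), beside 11.7%.

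The wt lines were compared at lower levels than the ko lines, since the selection asked for low wt values, and 21 of the 50 genes had a mean wt level under 0.5 RPKM and passed the filter only through their ko level. The spread of the wt lines is therefore not set against that of the ko lines. The wt means lay within 1.5-fold of each other in 26 of the 50 genes, beside 268 of 454, and the ratio of iDam to BryGFP had a median of 0.737 and a range from 0.139 to 3.09. Both BryGFP libraries stood above both iDam libraries in 28 of the 50 genes, beside 37.4% of the 454. The reverse held in 5 genes (Adra2b, C77370, Gpm6b, Ptgfr and Rhpn2), beside 22.7%. In the limma test 4 of the 50 genes passed between the wt lines, beside 117 of the 454 (25.8%).

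C77370 and Gpm6b were higher in iDam, by 1.15 ± 0.18 and 0.79 ± 0.20 (log2 difference, SE, adjusted p = 0.00332 and 0.0196, limma). Pappa, with 0.0868 and 0.0855 RPKM in iDam and 0.581 and 0.656 in BryGFP, was lower in iDam by -0.58 ± 0.13 (adjusted p = 0.0132, limma). With a mean wt level of 0.352 RPKM it passed the filter only through its ko level, it was not tested with a filter of 1 RPKM, and it passed with no filter (adjusted p = 0.0158, limma). Sh3tc2, with 0.198 and 0.266 RPKM in iDam and 1.01 and 1.39 in BryGFP, was lower in iDam by -0.83 ± 0.21 (adjusted p = 0.0189, limma). C77370 passed under every alternative run, and Pappa and Sh3tc2 did not pass after quantile normalization. C77370 alone passed without iDam library 1, iDam library 2 or BryGFP library 2, and Gpm6b also did not pass without BryGFP library 1 (adjusted p = 0.0522, limma).

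**Figure D4:**
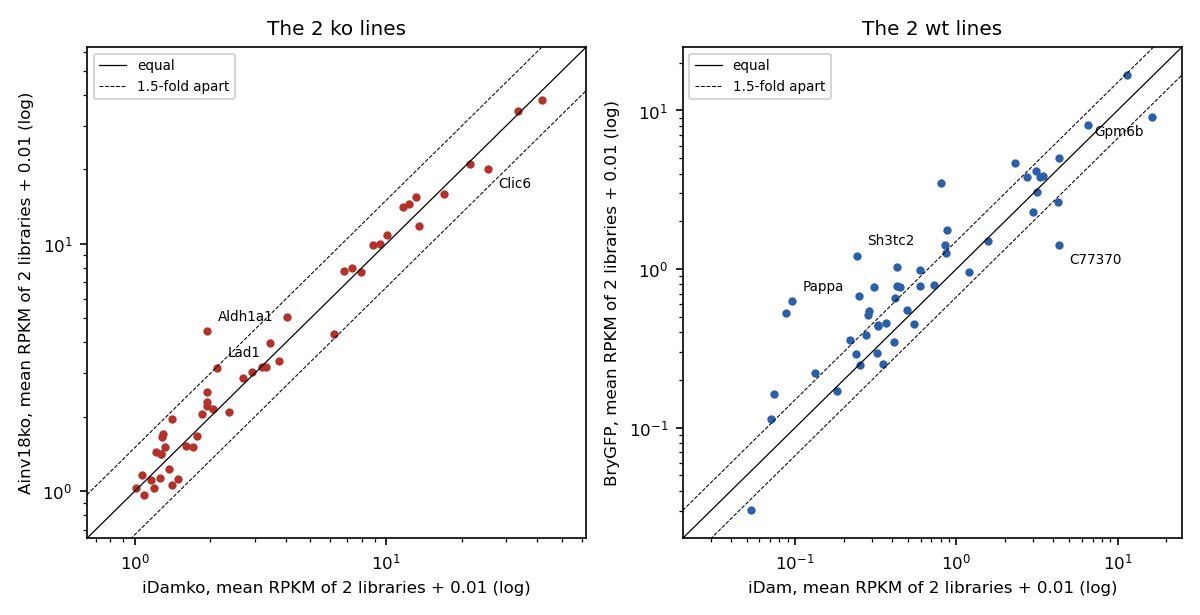
Mean RPKM of 2 libraries + 0.01 on log scales for the 50 genes, iDamko against Ainv18ko (left) and iDam against BryGFP (right), with dashed lines at 1.5-fold. Of the 50 genes, 49 lie within 1.5-fold in the ko lines and 26 in the wt lines, whose levels are lower by the selection.

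Each ko line was also set against a wt line on its own. Ainv18ko was not made from BryGFP, so that pair also holds any difference between these lines. The ko effect here means the difference within a pair. The ratio of iDamko to iDam had a median of 4.49 and a range from 1.69 to 27.8, and was at least 2.5 in 46 genes, the others being C77370, Gpm6b, Rhpn2 and Ptgfr. The ratio of Ainv18ko to BryGFP had a median of 3.37 and a range from 1.97 to 71.4, and was at least 2.5 in 42 genes, the others being Usp44, Ccdc88c, Mob3b, Slc7a6, Ucn, Stc2, Ydjc and Pappa. Both ratios reached 2.5 in 38 genes. The pairs together hold the libraries whose means selected the genes, so these counts are largely set by the selection and do not test agreement of the lines. Differences of the ko effect between the pairs are also restricted, since the table holds only genes that differed from both wt lines and the 50 genes were selected as gained. The ko effect differed between the pairs of lines in 1 of the 50 genes in the limma test, beside 40 of the 454 (8.81%). That gene was C77370, with a ko effect smaller by -1.26 ± 0.26 (log2 difference, SE, adjusted p = 0.0234, limma) in the iDam pair. Its levels were 7.33 RPKM and 7.96 RPKM in the ko lines, and 4.34 RPKM in iDam and 1.41 RPKM in BryGFP. Its log2 difference was -0.10 between the ko lines and 1.15 between the wt lines, so the call between the pairs largely restates that between the wt lines. Leaving out any 1 of the 8 libraries ended this call (adjusted p from 0.0502 to 0.0912, limma), while the log2 difference stayed between -1.15 and -1.36.

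The column headers give each library of a line a number, 1 or 2, and in both the 50 genes and the table at large the ko libraries often separated by this number. Both libraries numbered 1 stood above both numbered 2 in 15 of the 50 genes, beside 22.7% of the 454. Those numbered 2 stood above in 17, beside 34.1%, so the shares of the 50 genes (30% and 34%) lay near those of all genes tested. Among the genes higher in number 1 were Cited4, Grtp1, Rnf165, Tnni1 and Aqp8, and among those higher in number 2 Slc7a6, Slc39a8, Fhod3, Slc6a15, Bdh1 and A730049H05Rik.

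On the log2(RPKM + 1) scale, the median absolute difference between libraries of the same number from different ko lines was 0.16 and 0.19 over the 50 genes and 0.12 and 0.12 over all 454. Between the libraries of 1 ko line it was 0.28 and 0.43 over the 50 genes and 0.20 and 0.25 over all. Between the libraries of iDam and of BryGFP it was 0.10 and 0.13 over the 50 genes, which are low in wt cells, and 0.21 and 0.22 over all. Between libraries of the same number from the wt lines it was 0.23 and 0.20 over the 50 genes and 0.33 and 0.37 over all. What the numbers stand for is not stated, and whether they mark a shared day or batch was not tested. The ratio of ko to wt level, recomputed from libraries of 1 number only, was at least 2.02 (Ptgfr) in number 1 and at least 2.16 (Tnni1) in number 2. Its medians were 3.70 and 3.60, and it reached 2.5 in 41 and 49 of the 50 genes. Because the selection used the libraries of both numbers, high ratios in each are largely set by it and are no check of the gain.

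**Figure D5:**
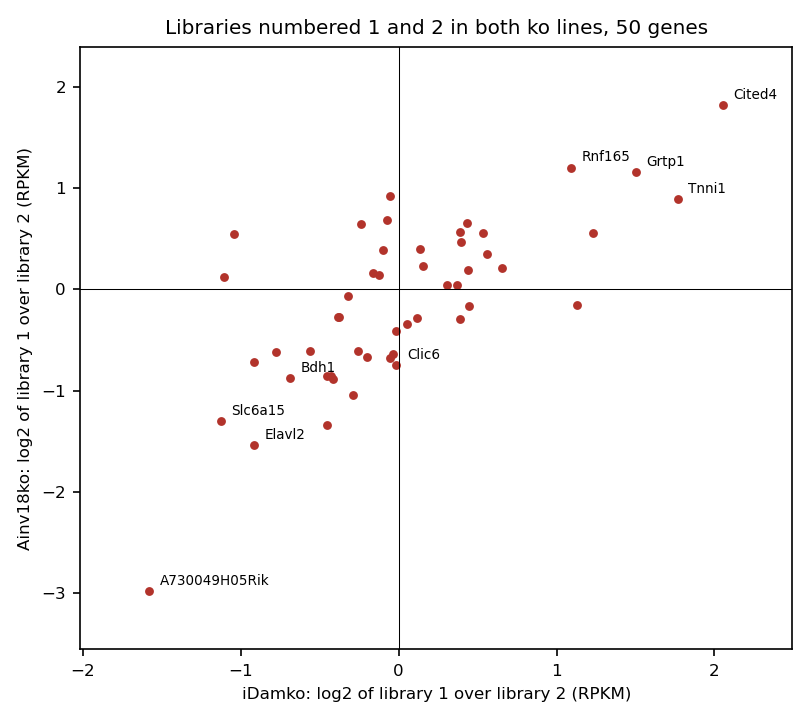
Log2 ratio of the library numbered 1 to that numbered 2 in iDamko (horizontal) and in Ainv18ko (vertical) for the 50 genes. Cited4, Tnni1, Grtp1 and Rnf165 lie far to the upper right and A730049H05Rik far to the lower left, so for these genes the same numbered library was high in both lines. The sign was the same in both ko lines in 37 of the 50 genes.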

How the data were processed

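RNA was sequenced from 8 libraries, 2 for each of 4 lines, and the deposited data used here were 1 table of 622 genes, each with a deposited FDR of at most 0.049 against iDam and 0.05 against BryGFP. Per the submitters' processing notes, edgeR and the mm9 build were used. The sources used here do not name the aligner, the counting step, the annotation or the strand setting (not given in the sources used here). For each gene the deposited table holds the authors' log2 folds, p-values and FDRs against iDam and against BryGFP, and 1 value per library whose header names no unit. These values were read as RPKM as deposited by the authors, from their relation to exon length (r = 0.905 on the log2 scale across 429 genes, which are not independent replicates). Low values fell on multiples of 1 read, within 0.06 read for 78.6% to 100% of the values used, which gave the depths. With these depths 12 members had under 20 implied reads in a wt library and 7 under 10. Columns were mapped to lines by name, and 4 repeated columns with identical values were used once.

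Positions and types were taken by Ensembl ID from GENCODE M21 (GRCm38), where 10 of the 622 genes had no entry, none of them passing the other conditions. The member stored in the table as a number by date conversion was identified by its ID as March9. Lines were compared with limma 3.58.1 in R 4.3.3 on log2(RPKM + 1) with a variance trend and 1 mean per line, over the 454 genes that averaged 0.5 RPKM or more, with Benjamini-Hochberg adjustment at 0.05. The log2(RPKM + 1) scale understates changes of low genes. The test was tested on simulated data first. Count tests did not apply to RPKM. The members, classes, motifs and lists were chosen with earlier results of these data known. Values in every library are given for the 12 members with the highest ratio, the 5 with the highest mean ko level, those called between ko lines or in the difference of effects, and for a few named as chosen later, and the other members by mean or range. The alternatives were pseudocount 0.25, other filters, quantile normalization, no variance trend, a replicate block and leaving out each library.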

Additional observations from a re-analysis of the deposited data

Results flagged for a closer look

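In 4 of the 100 groups examined, 1 for each member and genotype, a library lay far from the other 3 of its genotype; chance alone gives about 1 in 20 groups. Clic6 measured 15.0 RPKM in Ainv18ko library 1, where the other ko libraries lay between 25.1 and 25.5 RPKM. Hap1 measured 2.61 RPKM in Ainv18ko library 2, with the other ko libraries between 1.91 and 1.96 RPKM. Kif21a measured 0.460 RPKM in iDam library 2, with the other wt libraries between 0.332 and 0.347 RPKM. Mob3b measured 1.51 RPKM in iDamko library 1, with the other ko libraries between 1.204 and 1.24 RPKM.

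C77370 drew attention because its ko effect differed between the pairs of lines, by -1.26 on the log2(RPKM + 1) scale, smaller for iDamko against iDam than for Ainv18ko against BryGFP.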

How the results depend on the processing

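Between the ko lines, 9 to 16 of the genes tested were called under every alternative, and none of the 50 members except without Ainv18ko replicate 1, where Aldh1a1 was called (-1.33, adjusted p = 0.0146, limma), so leaving out 1 library gave 0 to 1 members and 9 to 12 genes. Between the wt lines, 7 members were called with pseudocount 0.25, 2 after quantile normalization and 7 with the library number as a replicate block, instead of 4, and leaving out 1 library gave 1 to 4 members and 58 to 111 genes (73 and 69 without iDam replicates 1 and 2, 58 without BryGFP replicate 2, against 117). For the difference of the ko effects, pseudocount 0.25 gave 2 members, adding Sh3tc2, and leaving out 1 library gave 0 members throughout, with 15 to 36 genes against 40. The lone library of a line was then assumed to vary like the other lines. No direction reversed, and the cause of the changes was not tested. The library numbers were not treated as pairing the samples, since the labels tie them to nothing and only 2 exist: over 454 genes the deviations of same-numbered libraries from their line means correlated at 0.689 between the ko lines, at 0.396 and 0.490 between iDam and the ko lines, and at -0.175, -0.038 and 0.002 for BryGFP with the others. With the replicate block 10, 138 and 48 genes were called in the 3 comparisons, against 12, 117 and 40. Depth limits the wt values of weakly expressed members, and 2 libraries per line limit the tests between lines.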

Other observations

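Solute carrier genes, taken by their symbol, numbered 17 in the table, of which 8 were higher and 9 lower in ko cells. Besides the members Slc39a8, Slc6a15, Slc7a6 and Slc8a3, those higher were Slc1a3, Slc25a30, Slc7a1 and Slc7a4. The amino acid transporter genes Slc7a8 and Slc1a2 were among those lower. Relatives of the member Slc7a6 stood on both sides, with Slc7a1 and Slc7a4 higher and Slc7a8 lower. Of all 544 coding genes of the table, 223 were higher and 321 lower.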
